A study of Homo sapiens with 4 samples.

Results

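Genes for spliceosome subunits, SR proteins and hnRNP proteins were followed in U251 cells, an established human glioblastoma (GBM) line, after knockdown of the protein arginine methyltransferase PRMT3. The members were all genes of the count table whose symbol belongs to the SRSF, HNRNP, SF3A, SF3B, U2AF, SNRP (A to G), SNRNP or PRPF series. This gave 76 of the 15575 genes in the table. RNA-seq covered 2 groups of 2 libraries each. The Ctrl libraries came from U251 cells with a pGreen control vector, and the PRMT3-KD libraries from U251 cells with PRMT3 knockdown. Knockdown in this study used lentiviral shRNA, and RNA was taken after 72 hours. The sources used here do not name the hairpin of these libraries, and nothing says that the libraries of a group came from separate cultures, so the p-values measure a spread that may be technical.

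Splicing removes introns from precursor mRNA and is carried out by the spliceosome, which assembles from small nuclear ribonucleoproteins (snRNPs). The U1 snRNP recognizes the start of the intron, U2AF and the U2 snRNP with its SF3A and SF3B complexes recognize the branch site and the end of the intron, and the U4/U6 and U5 snRNPs join as the tri-snRNP before catalysis. SR proteins, with domains rich in arginine and serine, bind exons and mostly favour their inclusion, whereas hnRNP proteins coat nascent RNA and often oppose it. Many SR and hnRNP proteins limit their own level by splicing their transcripts into forms that are removed by nonsense-mediated decay. Sm proteins and many hnRNP proteins carry methylated arginine, placed mainly by other members of the PRMT family.

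Total counts per library lay between 24804250 and 29756313. PRMT3 had 19.3 and 19.45 CPM (counts scaled to library size with TMM factors) in the Ctrl libraries and 3.03 and 1.58 CPM in the PRMT3-KD libraries, so the targeted transcript followed the labels. The Ctrl libraries were close to each other and the PRMT3-KD libraries were not. The chi-square of the counts per degree of freedom, which is 1 for counting error alone, was 1.41 over all genes tested in Ctrl and 65.9 in PRMT3-KD. Over the 74 members tested it was 3.91 in Ctrl and 48.7 in PRMT3-KD. Without U2AF1, whose counts were split over a pair of identifiers, it was 1.11 in Ctrl and 49.4 in PRMT3-KD. Apart from U2AF1, the Ctrl libraries thus differed over the members by about counting error. The chi-square was taken on library totals without TMM factors. These factors were 1.011 in both Ctrl libraries and 1.025 and 0.9549 in PRMT3-KD libraries, so the PRMT3-KD values include that difference in scaling.

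Of the 76 members, 74 passed the filter on low counts. The exceptions were HNRNPCL1, with at most 2 counts in a library, and HNRNPA1P33, a row of the HNRNPA1 pseudogene family, with at most 1 count. The 74 members had a median of 155 CPM in Ctrl, against 28.5 CPM for all 13172 genes tested. Their Ctrl means ran from 5.92 CPM for HNRNPA1L2 to 1662 CPM for HNRNPA2B1. All 76 members together made up 17978 and 17983 CPM in the Ctrl libraries and 15822 and 15596 CPM in the PRMT3-KD libraries. The summed level was thus lower in both PRMT3-KD libraries. In bulk RNA, a change of the level per cell and a change of the mix of cells cannot be told apart.

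Taken as a set, the splicing factor genes were shifted downwards by a small amount in PRMT3-KD cells, though not in every class. The median log2 fold change of the 74 members was -0.16, against 0.01 for all genes tested. Set against the Ctrl mean, PRMT3-KD library 1 had a median of -0.14 and library 2 one of -0.21. Of the members, 57 had a log2 fold change below 0 and 17 above 0, that is 77.0% below 0, against 49.5% of all genes. Both PRMT3-KD values lay below both Ctrl values for 48 members (64.9%), a pattern that 33.8% of all genes had. Both lay above for 13 members (17.6%), against 33.3% of all genes. The remaining 13 members overlapped between the groups. The members share libraries and are not replicates, so these shares are a description. Neither these shares nor those of the classes below were matched for level. The median in Ctrl was 155 CPM for the members and 28.5 CPM for all genes tested.

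In edgeR's quasi-likelihood test over all genes, 11 members had an adjusted p under 0.05 and were lower in PRMT3-KD (14.9% of the 74, against 8.91% of all genes), and 1 was higher (1.35%, against 8.39%). In both directions together, the share of members past the test (16.2%) was near that of all genes (17.3%). With a change of over 1.5-fold as a further condition, 3 were lower (against 5.97% of all genes) and 0 were higher (against 4.97%). At an unadjusted p under 0.05, edgeR gave 25 members lower and 4 higher, together 39.2% of members against 37.6% of all genes, and with DESeq2 0 members were higher over 1.5-fold as well. Most members therefore moved by less than 1.5-fold, in a range from -0.80 for SRSF8 to 0.54 for PRPF38A on the log2 scale. The number of members past the test rested on single libraries. Without either Ctrl library, 0 members passed in edgeR (8 without Ctrl replicate 1 and 5 without Ctrl replicate 2 had an unadjusted p under 0.05, or 10.8% and 6.76%, against 13.7% and 13.9% of all genes). Without PRMT3-KD replicate 1, 63 passed (85.1%, against 65.9% of all genes), and without PRMT3-KD replicate 2, 51 passed (68.9%, against 65.6%), because the spread then came from the Ctrl pair alone. With limma-voom and a variance weight for each group, 21 members passed (28.4%, against 21.7% of all genes), all 12 of the edgeR calls among them. The shares in this paragraph were not matched for level. In edgeR the median standard error was 0.0806 for the members and 0.135 for all genes.

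**Figure D1:**
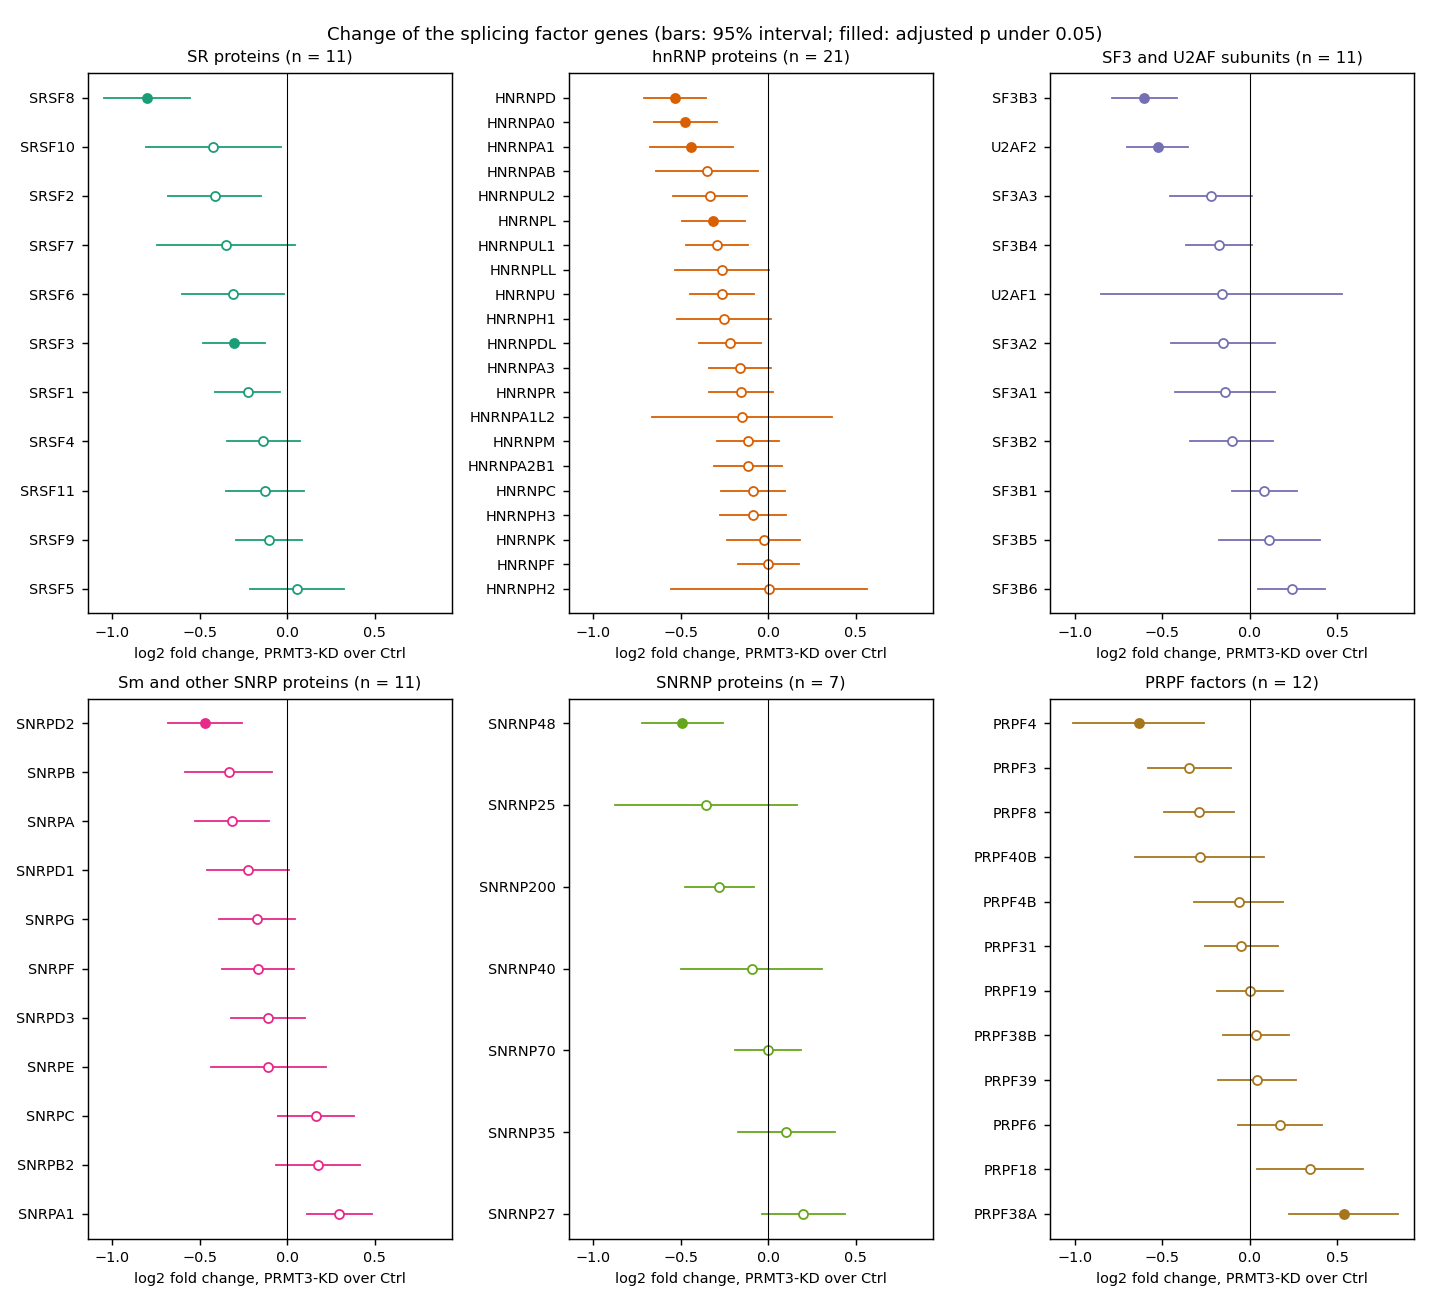
Log2 fold change (x axis, PRMT3-KD over Ctrl) of 73 of the 74 tested members, in 6 panels by class. Points are edgeR estimates, bars are 95% intervals, and filled points have an adjusted p under 0.05. Of the 11 SR genes 10 lie left of 0, as do 20 of the 21 hnRNP genes, while the PRPF genes lie on both sides. Of all genes tested, 49.5% were below 0.

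SR protein genes were lower in PRMT3-KD cells for 10 of 11 members (90.9%, against 49.5% of all genes), with a median log2 fold change of -0.30. Past the test as lower were 2 of them (18.2%, against 8.91% of all genes). Both PRMT3-KD values lay below both Ctrl values for the same 10 genes (90.9%, against 33.8% of all genes). The exception was SRSF5, which had 138 and 134 CPM in Ctrl and 131 and 152 CPM in PRMT3-KD libraries.

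SRSF8 (ENSG00000263465, chromosome 11 of GRCh37 from 94800083 to 94804388), a close relative of SRSF2, fell the most of all members. It had 40.7 and 41.5 CPM in the Ctrl libraries and 22.6 and 24.6 CPM in the PRMT3-KD libraries. The groups were well separated, and the level was 42.5% lower (log2 fold change -0.80, standard error (SE) 0.0922, adjusted p = 0.0192, edgeR). SRSF3 (ENSG00000112081, chromosome 6 from 36562130 to 36573377), a small SR protein that also takes part in mRNA export, had 282 and 278 CPM in Ctrl and 229 and 225 CPM in PRMT3-KD libraries. It fell by 0.30 on the log2 scale (SE 0.0663, adjusted p = 0.0482, edgeR). The annotation holds 5 SRSF3 pseudogenes, whose reads may be counted with it, and with DESeq2 its adjusted p was 0.0712.

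SRSF2, which binds exonic enhancers and had the highest level per kb of exon of the SR genes (108 CPM per kb in Ctrl), missed the test. Its values were 323 and 322 CPM in Ctrl and 261 and 223 CPM in PRMT3-KD libraries. The log2 fold change was -0.41 with a 95% interval from -0.68 to -0.15 (adjusted p = 0.0580, edgeR). DESeq2 gave an adjusted p of 0.0260. Exons of SRSF2 overlap MFSD11 on the other strand, and the counting is not stated to use strand.

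SRSF7 and SRSF10, a regulator first known as a splicing repressor, differed between the PRMT3-KD libraries. SRSF10 had 201 and 192 CPM in Ctrl, 166 CPM in PRMT3-KD library 1 and 128 CPM in library 2. SRSF7 had 145 and 146 CPM in Ctrl, 130 CPM in library 1 and 98.6 CPM in library 2. For both genes library 2 was the lower, and neither passed the test (adjusted p = 0.112 for SRSF10 and 0.166 for SRSF7, edgeR). SRSF1, the prototype SR protein, had a log2 fold change of -0.22 (95% interval -0.41 to -0.04, adjusted p = 0.0931, edgeR). SRSF6 was at -0.31, and SRSF4, SRSF9 and SRSF11 lay between -0.14 and -0.10, with adjusted p of 0.118 to 0.355 (edgeR).

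All 11 SR genes have at least 1 annotated transcript of the nonsense-mediated decay class in GENCODE 44, with a maximum of 6 for SRSF7. Such a transcript is annotated for 14 of the 21 tested hnRNP genes and for 43 of the 74 members (58.1%), against 47.2% of the 12793 protein-coding genes tested. The lowest share was that of the SNRP class, with 3 of 11 genes. These shares were not matched for the number of annotated transcripts per gene. Gene counts do not separate isoforms, so the use of these transcripts was not measured.

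Among hnRNP protein genes, 20 of 21 had a log2 fold change below 0 (95.2%, against 49.5% of all genes), with a median of -0.22. In 17 of the 21 (81.0%, against 33.8% of all genes) both PRMT3-KD values lay below both Ctrl values, and in the other 4 the groups overlapped. HNRNPD, HNRNPA0, HNRNPA1 and HNRNPL passed the test as lower (19.0%, against 8.91% of all genes), and 0 hnRNP genes changed by over 1.5-fold. Of all genes, 5.97% were lower and 4.97% higher past the test and over 1.5-fold.

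HNRNPD (ENSG00000138668, chromosome 4 from 83273651 to 83295656) encodes AUF1, which binds AU-rich elements and affects mRNA decay. It had 383 and 380 CPM in Ctrl and 265 and 261 CPM in PRMT3-KD libraries. The 2 PRMT3-KD values were almost equal, and the gene fell by 0.53 on the log2 scale (SE 0.0660, adjusted p = 0.0202, edgeR). HNRNPA0 (ENSG00000177733), another binder of AU-rich elements, had 232 and 234 CPM in Ctrl and 171 and 165 CPM in PRMT3-KD libraries. The estimate was -0.47 (SE 0.0677, adjusted p = 0.0234, edgeR).

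HNRNPA1 (ENSG00000135486, chromosome 12 from 54673977 to 54680872), a repressor of exon inclusion with an arginine- and glycine-rich region, was the most abundant member per kb of exon. It stood at 159 CPM per kb in Ctrl and 117 in PRMT3-KD cells. Its levels were 1067 and 1064 CPM in Ctrl and 738 and 833 CPM in PRMT3-KD libraries, a log2 fold change of -0.44 (SE 0.0886, adjusted p = 0.0412, edgeR). The annotation names 74 HNRNPA1 pseudogenes, so its count is uncertain. HNRNPL, a regulator that binds CA repeats, had 313 and 316 CPM in Ctrl and 257 and 249 CPM in PRMT3-KD libraries. It fell by 0.31 (SE 0.0670, adjusted p = 0.0455, edgeR), and DESeq2 gave an adjusted p of 0.0570.

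HNRNPUL1 and HNRNPDL had lower values in both PRMT3-KD libraries and missed the test. HNRNPUL1 had 712 and 716 CPM in Ctrl and 590 and 575 CPM in PRMT3-KD libraries (log2 fold change -0.29, 95% interval -0.47 to -0.12, adjusted p = 0.0516, edgeR). HNRNPDL, the closest relative of HNRNPD, had 348 and 344 CPM in Ctrl and 301 and 293 CPM in PRMT3-KD libraries (-0.22, 95% interval -0.40 to -0.04, adjusted p = 0.0889, edgeR). HNRNPA3 and HNRNPM were at -0.16 (95% interval -0.34 to 0.02) and -0.12 (95% interval -0.29 to 0.06). For HNRNPA3 the annotation names 16 pseudogenes.

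HNRNPA2B1, the member with the most CPM, had 1669 and 1656 CPM in Ctrl and 1486 and 1582 CPM in PRMT3-KD libraries, at -0.12 with an adjusted p of 0.318 (edgeR). HNRNPK and HNRNPC, which bind C-rich and U-rich RNA, had log2 fold changes of -0.03 and -0.09. HNRNPF, a binder of G-rich RNA, had 232 CPM in both Ctrl libraries and 234 and 230 CPM in PRMT3-KD libraries. Its 95% interval, from -0.18 to 0.17 around a log2 fold change of 0, was the narrowest of the genes that missed the test.

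The remaining hnRNP genes also missed the test. HNRNPU, a large nuclear scaffold protein, had 818 and 799 CPM in Ctrl and 685 and 661 CPM in PRMT3-KD libraries (log2 fold change -0.26, adjusted p = 0.0666, edgeR). HNRNPUL2 and HNRNPAB were at -0.33 and -0.35, HNRNPLL at -0.27, HNRNPR at -0.16, HNRNPH3 at -0.09 and the low HNRNPA1L2 at -0.15, with adjusted p of 0.0559 to 0.608 (edgeR). Exons of HNRNPUL1 overlap TGFB1 on the other strand, and those of HNRNPUL2 are shared with the readthrough gene HNRNPUL2-BSCL2.

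HNRNPH2, on the X chromosome, had the largest gap of all members between the PRMT3-KD libraries. It had 120 and 118 CPM in Ctrl, 94.8 CPM in PRMT3-KD library 1 and 144 CPM in library 2. One PRMT3-KD library was below Ctrl and the other above it, and the log2 fold change without PRMT3-KD replicate 2 was -0.33. Its paralog HNRNPH1 had 689 and 676 CPM in Ctrl and 618 and 528 CPM in PRMT3-KD libraries. Exons of HNRNPH2 are shared with the readthrough gene RPL36A-HNRNPH2.

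**Figure D2:**
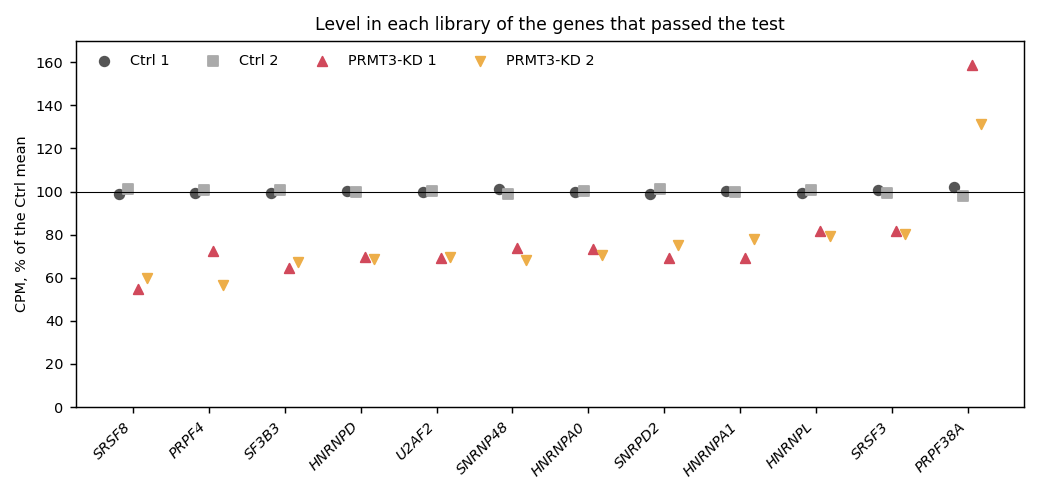
CPM in each of the 4 libraries as a percentage of the Ctrl mean (y axis, from 0) for the 12 members with an adjusted p under 0.05. The Ctrl points lie close to 100, 11 genes have both PRMT3-KD points below them, and PRPF38A has both above.

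The recognition of the branch site and the end of the intron depends on U2AF and on SF3A and SF3B. U2AF2 (ENSG00000063244, chromosome 19 from 56165512 to 56186082), the large U2AF subunit, which binds the polypyrimidine tract, had 344 and 346 CPM in Ctrl and 239 and 241 CPM in PRMT3-KD libraries. The groups were far apart relative to their spread, and the gene fell by 0.53 on the log2 scale (SE 0.0657, adjusted p = 0.0203, edgeR).

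U2AF1 (ENSG00000160201, chromosome 21 from 44513066 to 44527680), the small subunit, which reads the AG at the end of the intron, was split over 2 identifiers in the table. The second, named U2AF1L5 (ENSG00000275895), is marked in GENCODE 44 as an artefactual duplication of U2AF1. It is a separate locus in RefSeq's GRCh38 list, whereas the labels give hg19 as the build. Ctrl library 1 had 1229 counts on U2AF1 and 1785 on U2AF1L5. Ctrl library 2 had 2044 and 965, so the order of the 2 identifiers was reversed between the Ctrl libraries. The share on U2AF1 was 40.8% (exact 95% interval 39.0 to 42.6) in Ctrl library 1, 67.9% (66.2 to 69.6) in Ctrl library 2, 60.0% (57.9 to 62.0) in PRMT3-KD library 1 and 60.7% (58.7 to 62.6) in PRMT3-KD library 2, where the intervals cover counting error only.

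As deposited, U2AF1 had 44.4 and 74.3 CPM in Ctrl and 53.4 and 52.9 CPM in PRMT3-KD libraries, with an estimate of -0.16 on the log2 scale (SE 0.258, adjusted p = 0.691, edgeR). Without Ctrl replicate 2 it was 0.26. The sums of both identifiers came to 3014 and 3009 reads for Ctrl and 2261 and 2475 reads for PRMT3-KD, that is 109 CPM in each Ctrl library and 89.0 and 87.1 CPM in the PRMT3-KD libraries. The Ctrl libraries agreed within counting error once the identifiers were summed, and both PRMT3-KD values lay below them. The summed gene fell by 0.31 (SE 0.0681, 95% interval -0.49 to -0.13, adjusted p = 0.0487, edgeR). This sum was made after the data were examined, and with it 12 members were lower in place of 11.

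**Figure D3:**
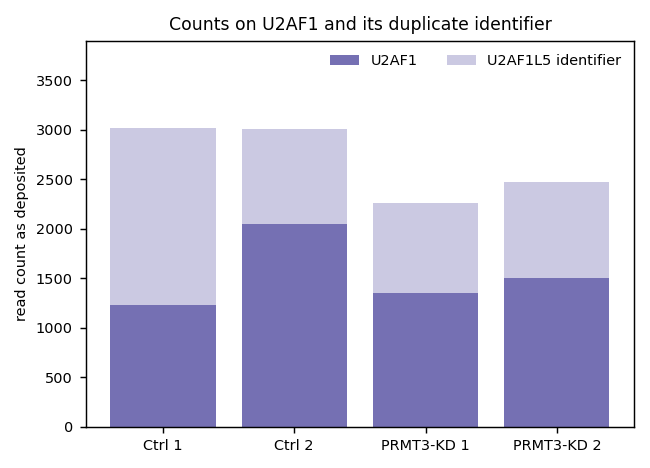
Read counts as deposited (y axis) on U2AF1 and on the duplicate identifier U2AF1L5, stacked, in each library. The split differs between the Ctrl libraries while their totals are 3014 and 3009, and both PRMT3-KD totals are lower.

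Of the 9 SF3A and SF3B genes, 1 passed the test as lower, as did 8.91% of all genes. SF3B3 (ENSG00000189091, chromosome 16 from 70557694 to 70611573), a large scaffold protein of the SF3B complex, had 436 and 442 CPM in Ctrl and 283 and 296 CPM in PRMT3-KD libraries. Both PRMT3-KD values were far below Ctrl, and the level was 34.1% lower (log2 fold change -0.60, SE 0.0697, adjusted p = 0.0192, edgeR). SF3B1, which holds the branch site helix and is a partner of SF3B3, had 332 and 337 CPM in Ctrl and 347 and 362 CPM in PRMT3-KD libraries. The log2 fold change of SF3B1 was 0.08 with a 95% interval from -0.10 to 0.27, and the interval of SF3B3, from -0.79 to -0.42, did not reach it. The difference between the 2 genes was not tested.

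SF3B6, which lies at the branch site adenosine, had 65.8 and 64.5 CPM in Ctrl and 75.8 and 78.2 CPM in PRMT3-KD libraries (log2 fold change 0.24, adjusted p = 0.0858, edgeR). SF3B5, a small subunit and the most abundant of this class per kb (112 CPM per kb in Ctrl), had 76.7 and 77.6 CPM in Ctrl and 90.5 and 76.1 CPM in PRMT3-KD libraries, and only PRMT3-KD library 1 stood out. The log2 fold changes of SF3A1, SF3A2, SF3A3, SF3B2 and SF3B4 lay between -0.22 and -0.10, with adjusted p of 0.147 to 0.452 (edgeR).

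The Sm ring is the heptamer of SNRPB, SNRPD1, SNRPD2, SNRPD3, SNRPE, SNRPF and SNRPG around which the U1, U2, U4 and U5 snRNPs are built. All 7 genes had a log2 fold change below 0, between -0.47 and -0.11 with a median of -0.17, and 49.5% of all genes lay below 0. SNRPD2 passed the test, with 124 and 127 CPM in Ctrl and 86.7 and 94.5 CPM in PRMT3-KD libraries (log2 fold change -0.47, SE 0.0798, adjusted p = 0.0314, edgeR). Its exons overlap those of QPCTL on the other strand. SNRPB, a Sm protein with methylated arginine in its tail, had 139 CPM in both Ctrl libraries and 118 and 103 CPM in PRMT3-KD libraries (log2 fold change -0.33, adjusted p = 0.0745, edgeR). SNRPE is the Sm gene whose groups overlapped, with 41.6 and 41.8 CPM in Ctrl and 42.6 and 34.9 CPM in PRMT3-KD libraries. For SNRPE and SNRPG the annotation names 10 and 20 pseudogenes.

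The genes for proteins specific to the U1 and U2 snRNPs, SF3A and SF3B aside, missed the test, and their estimates lay on both sides of 0. In the U1 snRNP, SNRPA was at -0.32 (adjusted p = 0.0612, edgeR). SNRNP70, the U1 protein that SR proteins contact, had 355 and 359 CPM in Ctrl and 367 and 347 CPM in PRMT3-KD libraries, with a 95% interval from -0.19 to 0.19. SNRPC, the member with the most CPM per kb of its class (114 in Ctrl), had 141 and 143 CPM in Ctrl and 167 and 151 CPM in PRMT3-KD libraries (log2 fold change 0.17, adjusted p = 0.215, edgeR). For SNRPC the annotation names 18 pseudogenes. In the U2 snRNP, SNRPA1 had 87.6 and 84.9 CPM in Ctrl and 107 and 105 CPM in PRMT3-KD libraries. The difference of 0.30 on the log2 scale missed the test narrowly (95% interval 0.11 to 0.48, adjusted p = 0.0540, edgeR). Its partner SNRPB2 was at 0.18 (adjusted p = 0.228, edgeR). SNRNP27, a protein of the tri-snRNP, was at 0.20 (adjusted p = 0.185, edgeR).

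In the U5 snRNP, PRPF8, the protein at the catalytic centre, had 521 and 537 CPM in Ctrl and 418 and 447 CPM in PRMT3-KD libraries (log2 fold change -0.29, adjusted p = 0.0643, edgeR). SNRNP200, the helicase that unwinds U4 from U6, had 388 and 397 CPM in Ctrl and 312 and 334 CPM in PRMT3-KD libraries (-0.28, adjusted p = 0.0664, edgeR). Both genes were lower in each PRMT3-KD library and missed the threshold. SNRNP40 had 67.5 and 68.3 CPM in Ctrl, 72.3 CPM in PRMT3-KD library 1 and 54.8 CPM in library 2, so the groups overlapped. PRPF6, which bridges U5 and U4/U6, was at 0.18 (adjusted p = 0.232, edgeR).

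In the U4/U6 snRNP, PRPF4 (ENSG00000136875, chromosome 9 from 116037922 to 116056289) had 50.7 and 51.4 CPM in Ctrl and 36.9 and 28.9 CPM in PRMT3-KD libraries. It fell by 0.63 on the log2 scale (SE 0.140, adjusted p = 0.0490, edgeR), more in library 2 (-0.82) than in library 1 (-0.47). On library totals only its adjusted p was 0.0734, and without the filter on low counts 0.0501 (edgeR). PRPF3, its partner, had 67.6 and 68.9 CPM in Ctrl and 56.7 and 50.7 CPM in PRMT3-KD libraries (log2 fold change -0.35, adjusted p = 0.0646, edgeR). PRPF31 was at -0.05 with a 95% interval from -0.26 to 0.16.

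PRPF38A (ENSG00000134748, chromosome 1 from 52870274 to 52886508), needed for activation of the assembled spliceosome, was the 1 member that passed the test as higher. It had 78.1 and 75.2 CPM in Ctrl and 122 and 101 CPM in PRMT3-KD libraries. Both PRMT3-KD values were above both Ctrl values, and the gene rose by 0.54 on the log2 scale (SE 0.116, adjusted p = 0.0470, edgeR). On library totals only, without TMM factors, its adjusted p was 0.0881 and 0 members were higher. PRPF38B and PRPF39 were both at 0.04, PRPF4B and PRPF40B at -0.06 and -0.29, and PRPF18, a factor of the final step, was at 0.35 (adjusted p = 0.103, edgeR). PRPF19, the ubiquitin ligase of the activated spliceosome and the most abundant PRPF gene per kb (64.2 CPM per kb in Ctrl), had 182 and 192 CPM in Ctrl and 189 and 186 CPM in PRMT3-KD libraries. Its 95% interval was -0.19 to 0.19.

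The minor spliceosome, which removes a small class of introns, is represented by 3 proteins of the U11/U12 snRNP. SNRNP48 (ENSG00000168566) had 45.2 and 44.3 CPM in Ctrl and 33.0 and 30.6 CPM in PRMT3-KD libraries, a log2 fold change of -0.49 (SE 0.0867, adjusted p = 0.0328, edgeR). On library totals only its adjusted p was 0.0523 (edgeR). SNRNP25 had 14.4 ± 0.843 CPM (SD, n = 2) in Ctrl, 13.1 CPM in PRMT3-KD library 1 and 9.43 CPM in library 2. It missed the test at this depth and spread (95% interval -0.87 to 0.16). SNRNP35 was at 0.10 (95% interval -0.17 to 0.38). Of these 3 genes, SNRNP48 alone passed the test, and differences among them were not tested.

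**Figure D4:**
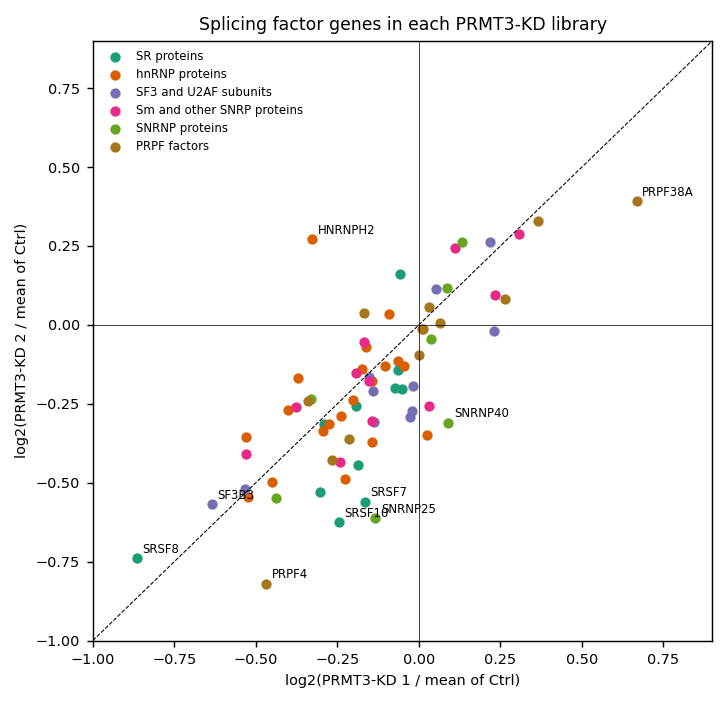
Log2 ratio to the Ctrl mean in PRMT3-KD library 1 (x axis) and library 2 (y axis) for 73 of the 74 tested members, coloured by class. The dashed line marks equal values, and both axes share the same Ctrl libraries. HNRNPH2 lies farthest from the line, with -0.33 and 0.27.

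The 2 PRMT3-KD libraries differed by a median of 0.12 on the log2 scale over the members, regardless of sign, against 0.24 over all genes tested. The gap was narrowest for hnRNP genes, with a median of 0.0528, and wider for SR genes, with 0.151. These gaps were not matched for level. The median in Ctrl was 155 CPM for the members, 352 CPM for the hnRNP genes and 28.5 CPM for all genes tested. The 5 members with the largest gap were HNRNPH2, SNRNP25, SNRNP40, SRSF7 and SRSF10. Except for HNRNPH2, library 2 was the lower of the pair in these genes.

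Splicing genes outside the name rule were counted in 7 lists with 158 genes, of which 155 were tested and the other 3 were not analysed here. Of these, 21 were lower and 7 higher in PRMT3-KD cells at an adjusted p under 0.05, that is 13.5% and 4.52%, against 8.91% and 8.39% of all genes. Over 1.5-fold, 7 were lower and 1 was higher, or 4.52% and under 1%, both below the 5.97% and 4.97% of all genes. Their median log2 fold change was -0.06, and the medians of PRMT3-KD libraries 1 and 2 were -0.0031 and -0.14. This median was nearer to 0 than that of the members, and the 2 libraries did not share it.

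Of 22 SR-related proteins and SR protein kinases, 3 were lower (13.6%, against 8.91% of all genes) and 0 higher (against 8.39%). RNPS1, which joins the exon junction complex, fell by 1.74 (adjusted p = 0.0182, edgeR) from 155 and 157 CPM to 54.8 and 38.5 CPM, more than any member. The others were SRRM2, a scaffold of nuclear speckles, at -0.39 and CLK1, a kinase of SR proteins, at -0.38. Of 39 other splicing regulators, 7 were lower (17.9%) and 4 higher (10.3%). PTBP1, PCBP1 and KHSRP, which are counted with the hnRNP proteins in a wider sense, were among the lower genes, between -0.57 and -0.44. RBFOX2, RBM10 and RBM39 were also lower, at -0.50, -0.58 and -0.51. FUBP3, MBNL1 and RBM4 were higher by 0.40 to 0.42, and NOVA1, a neuronal regulator, by 0.92 (adjusted p = 0.0303, edgeR) from 5.02 and 5.27 CPM to 10.4 and 9.05 CPM.

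Of 18 LSm proteins and U2-associated factors, 3 were lower (16.7%, against 8.91% of all genes) and 0 higher (against 8.39%). LUC7L3 and DDX46 fell by 0.43 and 0.33. DHX15, a helicase that disassembles spliceosomes, fell by 0.78 from 210 CPM in both Ctrl libraries to 129 and 115 CPM. Of 40 tri-snRNP, catalytic step and helicase factors, 5 were lower (12.5%) and 1 higher (2.5%). DDX41 and SMU1 fell by 0.77 and 0.68, and the helicases DHX38, DHX8 and DDX23 by 0.47, 0.47 and 0.33. CWC27 was the higher gene, at 0.47. Of 15 genes of the exon junction complex and nonsense-mediated decay, 1 was lower (6.67%) and 0 higher. Of 15 genes for snRNP assembly, 2 were lower (13.3%) and 1 higher (6.67%). SNUPN, the import adaptor of snRNPs, and GEMIN2 fell by 0.78 and 0.75, and PHAX, the export adaptor, was higher by 0.35. Of 6 further minor spliceosome genes, 0 were lower and 1 (16.7%), ZCRB1, was higher by 0.46. The changes given for these genes are log2 fold changes with an adjusted p between 0.0182 and 0.0491 (edgeR).

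**Figure D5:**
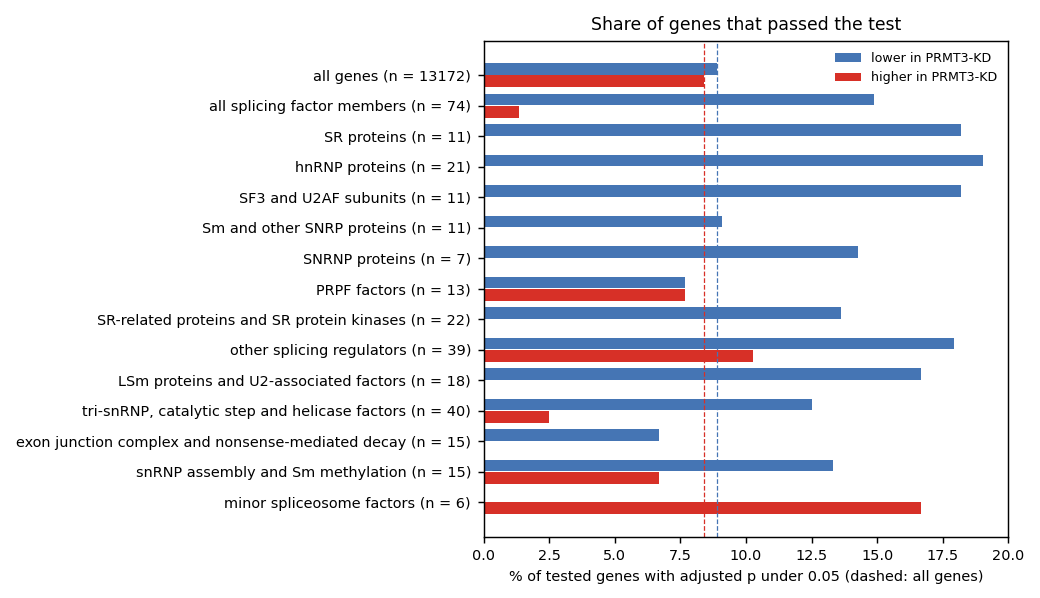
Share of tested genes (x axis, %) with an adjusted p under 0.05 and lower (blue) or higher (red) in PRMT3-KD cells, for all genes, for all members, for 6 classes of members and for 7 lists of other splicing genes. Dashed lines mark 8.91% and 8.39%, the shares of all genes, and in groups of 6 to 40 genes a single gene moves a bar by 2.5 percentage points or more.

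In these libraries, genes with the sequence CAGCTCA in the 3′ UTR had a median log2 fold change of -0.11, against 0.03 for genes without it (2214 and 10405 protein-coding genes; canonical transcripts whose 3′ UTR has 50 bases or more). The heptamer was chosen with earlier results of these data known, so this difference is a description. The sets with and without it were not matched for the length of the 3′ UTR, nor were the members and all genes. The heptamer is given here for the members. It was present in 6 of 74 members (8.11%), against 17.5% of all such genes. Of the 11 members that were lower, HNRNPA1 carried it, with 1 copy in its last exon, and the other 10 did not. Members called lower made up 16.7% of those with the heptamer and 14.7% of those without it. Among all such genes, these shares were 16.0% and 7.53%. HNRNPUL2 and SNRPD3 had 2 copies each, and PRPF38B, PRPF4B and SF3A1 1 copy each. The median log2 fold change was -0.13 for the 6 members with the heptamer and -0.16 for the 68 without it. The difference between these medians was not tested. The sites of the 2 hnRNP genes, which were the lowest of the 6 at -0.44 and -0.33, are shown with the heptamer in capitals, from GENCODE 44 transcripts lifted to GRCh37:
HNRNPA1, plus strand, chr12:54680807-54680827, exon 11 of 11: tgttctgCAGCTCAaattcca
HNRNPUL2, minus strand, chr11:62481800-62481820, exon 14 of 14: agggtttCAGCTCAcacgaaa
HNRNPUL2, minus strand, chr11:62481589-62481609, exon 14 of 14: tgggaggCAGCTCAgtggggc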

How the data were processed

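RNA-seq counts of 2 Ctrl and 2 PRMT3-KD U251 libraries were used. The authors deposited whole-number read counts per gene, which the methods trace to TopHat alignment on hg19 and Cufflinks; the labels also name CASAVA and DESeq2. Versions, gene annotation and strand setting are not given in the sources used here, and the table lists an identifier (U2AF1L5) that is a separate locus in GRCh38 lists. One duplicate row (of 15576) was removed, and 99.9% of identifiers matched GENCODE 44 lifted to GRCh37, which gave positions, exon lengths, pseudogenes, overlaps and transcript classes. CPM per kb uses all merged exons, so genes with long annotated exons come out low.

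Counts were filtered with filterByExpr (minimum count 10, minimum total 15), scaled by TMM and tested in edgeR 4.0.16 (R 4.3.3) with glmQLFit and glmQLFTest, with Benjamini-Hochberg adjustment over 13172 genes. Standard errors and 95% intervals were derived from the F statistic. An exact permutation test of 2 against 2 libraries cannot go below p = 0.333. Between 24804250 and 29756313 counts per library limit the precision of low genes. Alternatives were DESeq2 1.42.0, limma-voom (limma 3.58.1) with group weights, other scalings and filters, a replicate block and each library left out. The scripts were tested on simulated data. Plots used matplotlib 3.10.9.

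The members and gene lists were chosen with earlier results of these data known, as was the heptamer. Named members were those with an adjusted p under 0.05, those past 1.5-fold that missed the test (0 genes), the highest per kb of each class, the 5 with the largest gap between PRMT3-KD libraries, the 5 with the narrowest intervals among those that missed the test, and, of the other lists, genes past the test and 1.5-fold. Further members were named after their values were seen. The grouping by complex was also made after the data were examined. Values of some single genes are not reported here, though these genes are part of all counts, medians and shares.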

Additional observations from a re-analysis of the deposited data

How the results depend on the processing

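The sign of the median over the members was stable and the number past the threshold was not. The median log2 fold change of the members was -0.158, between -0.189 and -0.154 under other tests, scalings and filters and the block, and between -0.2044 and -0.147 with single libraries left out, while the median of all genes lay between -0.026 and 0.0103 under the former. The members lower in PRMT3-KD numbered 11, 5 with the replicate block and 20 with limma-voom, against 8.91%, 6.77% and 10.6% of all genes. Those higher numbered 1, 0 on library totals only, and 0 to 13 with libraries left out. Over 1.5-fold, 3 were lower (0 to 4 with libraries left out) and 0 higher (0 to 1). Over all genes, 1105 were higher (0 to 4478 with libraries left out) and 1173 lower (0 to 4385). Other splicing genes higher numbered 7, 4 on library totals only, 1 with the block, 11 with limma-voom and 0 to 50 with libraries left out; those lower numbered 21, 13 with the block and 0 to 84 with libraries left out. A lone library in a group was assumed to vary like the other group. Replicate numbers share only a label: the correlation of the Ctrl and PRMT3-KD library differences was 0.0580 over all genes and -0.0187 over members. The block left 6 of the 12 member calls, or 8.11% of members against 12.6% of all genes.

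Some genes that missed the test changed sign between settings or with libraries left out. PRPF19 was at -0.0298 on library totals only and -0.00283 among genes with at least 10 counts everywhere (-0.0371 to 0.0375 with libraries left out). SNRNP70 was at 0.000772 with DESeq2, 0.000782 with RLE and 0.000769 with upper-quartile factors (-0.0411 to 0.0329). HNRNPF was at 0.00306, 0.00306 and 0.00294 in the same 3 (-0.00936 to 0.00639). HNRNPH2 was at -0.0382 on library totals, -0.000282 with the count filter, -0.0275 with the block and -0.0217 with limma-voom (-0.332 to 0.273). With libraries left out, SF3B5 ran from -0.0172 to 0.227, SNRNP40 from -0.308 to 0.0865 and U2AF1 from -0.484 to 0.259. U2AF1 is the gene split over a pair of identifiers. It had 1229 and 2044 counts in the Ctrl libraries, where the sums of both identifiers were 3014 and 3009. The cause of these sign changes was not tested. HNRNPL and SRSF3 lost the test in DESeq2, on library totals, without the filter and with the block, PRPF4 on library totals and without the filter, SNRNP48 on library totals and with the block, PRPF38A on library totals, and HNRNPA0, HNRNPA1 and SNRPD2 with the block.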
